A study of Homo sapiens with 18 samples.

Results

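Chromatin accessibility was compared between Kelly cells carrying a first short hairpin RNA against AHR (shAhR-1) and Kelly cells carrying the empty lentiviral vector pLKO. The comparison holds 6 of the 18 libraries of the series, 3 per group, chosen by the cell line and genotype in their labels. Kelly is an established human neuroblastoma line, and by its title the series asks whether AhR promotes a less differentiated state where MYCN is amplified. All 6 Kelly libraries came from cells transduced with lentivirus, the pLKO group with the vector alone. The remaining libraries came from Kelly cells with a second hairpin (shAhR-2) and from BE2C, another established neuroblastoma line, with shAhR-1, shAhR-2 or pLKO. BE2C served here as a line whose libraries took no part in choosing regions. A hairpin lowers a transcript without removing its gene, and how far AHR itself was lowered is not analysed here. The labels mention triplicates and do not call them separate cultures, so p-values measure only the spread between libraries, which may be technical.

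AHR encodes a bHLH-PAS transcription factor that senses small molecules. It is held in the cytoplasm in a chaperone complex, enters the nucleus when it binds a ligand and pairs with ARNT on DNA at target genes such as CYP1A1. ATAC-seq reads out open chromatin, because a transposase inserts sequencing adapters where nucleosomes leave DNA exposed. A called peak marks an open site such as an active enhancer or promoter. A lost site can mean fewer cells with it open or less exposure per cell, and these cannot be told apart in bulk libraries.

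The shAhR-1 lists held 9204, 24424 and 23806 peaks in replicates 1, 2 and 3, against 34848, 19984 and 30053 in the pLKO lists (chromosomes 1 to 22 and X). Replicate 1 of shAhR-1 stood far below every other list, and the other shAhR-1 lists lay between the pLKO ones. The mean log2 ratio of peak numbers was −0.66 (ratio 0.635), with p = 0.3 in an exact permutation test. Without replicate 1 of shAhR-1 it was −0.19. Covered sequence was 3.49, 12.2 and 12.1 Mb with shAhR-1, against 21.9, 10.3 and 18.0 Mb with pLKO, a log2 ratio of −0.997 (exact p = 0.3), and −0.40 without that replicate. The smallest p that 3 libraries against 3 allow is 0.1, and over 6 tests every adjusted p was 0.3.

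Depth also differed between the libraries. The genome-wide background, in overlapping reads per position, was 0.601, 1.27 and 1.43 with shAhR-1, against 1.77, 1.92 and 1.26 with pLKO. Replicate 1 of shAhR-1 was again the lowest, and its part in the region counts is shown by giving each count with and without it. Among the 9204 strongest peaks of each list, the median width was 321, 677 and 654 bp with shAhR-1, against 894, 643 and 834 bp with pLKO. The log2 ratio of these widths was −0.58 (exact p = 0.3). The weakest of those 9204 peaks had a −log10 p of 4.23, 13.8 and 13.9 with shAhR-1, against 32.2, 12.5 and 24.7 with pLKO. Lists of equal length therefore end at unlike strengths, and a region can drop out of a pLKO list while its peak there is strong.

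**Figure D1:**
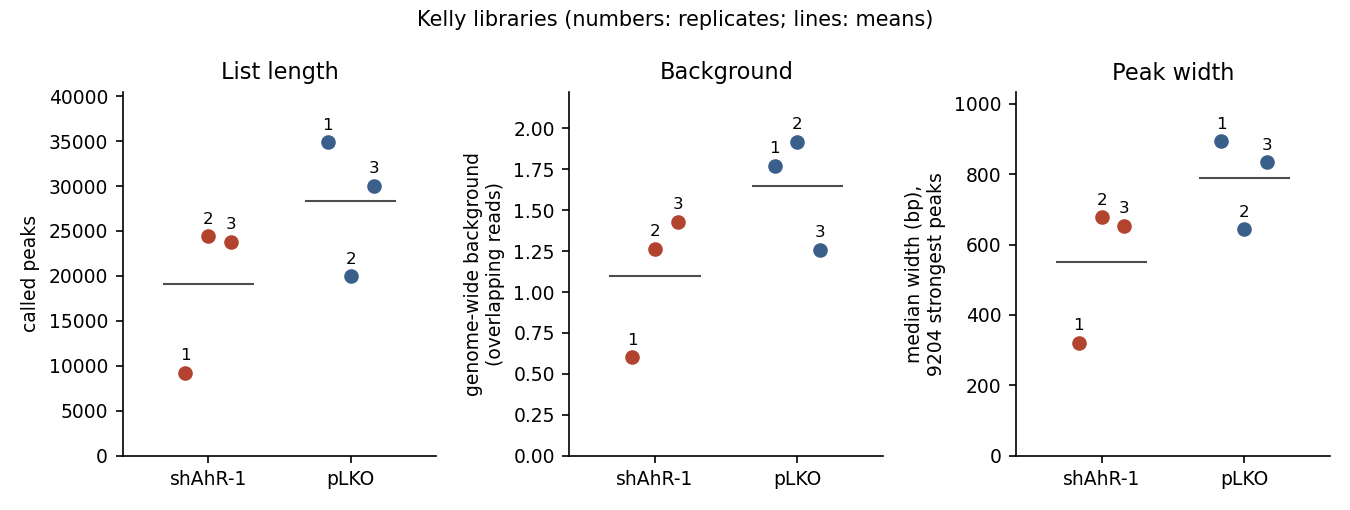
Number of called peaks, genome-wide background (overlapping reads per position) and median width (bp) of the 9204 strongest peaks in each Kelly library, with shAhR-1 in red and pLKO in blue; points carry the replicate number and lines are group means. Replicate 1 of shAhR-1, with 9204 peaks, a background of 0.601 and a median width of 321 bp, is the lowest in all 3 panels.

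At 9204 peaks per list, the 6 lists merged into 15400 regions, of which 4452 (28.9%) were present in every library. Replicate 1 of shAhR-1 held 2012 regions found in no other library, 22.3% of its own. The other 5 libraries held between 317 and 539 such regions, or 3.45% to 5.88%. The Jaccard index, the bases that a pair of lists share over the bases that either covers, lay between 0.258 and 0.336 for the 5 pairs with replicate 1 of shAhR-1. It was 0.591 between shAhR-1 replicates 2 and 3, and it averaged 0.603 within pLKO (range 0.549 to 0.695). Pairs across groups without that replicate lay between 0.525 and 0.556, below the shAhR-1 pair and overlapping the pLKO pairs. With all 6 lists the mean index within groups exceeded that between groups by 0.0526 (exact p = 0.1, the smallest that 10 divisions allow). This direction turned without pLKO replicate 1 (−0.012) and without pLKO replicate 3 (−0.0081).

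A region is called gained here when every shAhR-1 list and no pLKO list has it at equal length, and lost in the opposite case. Presence in 3 against 3 lists cannot pass a test corrected over so many regions, so no region carries a p-value. With all 6 libraries, 222 regions were gained, 1.44% of the 15400, and 270 were lost, 1.75%. Without replicate 1 of shAhR-1 the lists could be compared at 19984 peaks. They then merged into 29868 regions, of which 12619 (42.2%) were in all 5 libraries. Of these 29868 regions, 1120 were gained, 3.75%, and 701 were lost, 2.35%. At these lengths lost regions outnumbered gained ones with all 6 libraries, and gained outnumbered lost ones without replicate 1. At 9204 peaks without that replicate, 504 regions were gained and 377 lost. The balance without replicate 1 depended on where the lists were ended. With full lists 740 regions were gained and 942 lost, and at a −log10 q of at least 5 it was 403 and 841. Lists ended in these ways have unlike lengths. Their counts, like those at 9204 peaks, come from other totals of merged regions and cannot be set against the 3.75% and 2.35%. The balance also turned without pLKO replicate 2, at 1550 gained and 2166 lost. The shortest remaining list then held 23806 peaks instead of 19984, and lost regions needed only pLKO replicates 1 and 3. It kept its direction without pLKO replicate 1 (1414 gained and 979 lost) and without pLKO replicate 3 (1341 and 962).

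The choices named largely different regions. Of the 222 regions gained with all 6 libraries, 39 (17.6%) were also among the 1120 gained without replicate 1, where they made up 3.48%. Of the 270 lost regions, 4 (1.48%) were also among the 701, where they made up 0.571%. A pLKO peak ranked beyond 9204 but within 19984 counts as absent in one choice and present in the other.

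The deposited folds at these regions show how strong the missing peaks were. At the 222 gained regions the median fold over local background, the authors' own value, was 5.47, 8.41 and 8.01 in shAhR-1 replicates 1 to 3. The full pLKO lists had a peak at 211, 118 and 196 of these regions, with median folds of 7.32, 4.80 and 7.14. Only 9 of the 222 had no peak in any full pLKO list, and 114 had one in all 3. At the 270 lost regions the shAhR-1 full lists had a peak at 0, 257 and 262, with median folds of 5.69 and 5.50 in replicates 2 and 3. The pLKO median folds there were 10.5, 6.46 and 10.4. The count of 0 in replicate 1 follows from the rule, since its list was used whole, and 251 of the 270 regions kept a weaker peak in both other shAhR-1 lists.

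Without replicate 1 the calls rested more often on a missing peak, but fewer peaks lay beyond the longer common length of 19984. Lost regions also needed absence from 2 lists instead of 3. These counts therefore cannot be compared directly with those of the first choice. Of the 1120 gained regions, 435 had no peak in any full pLKO list, and of the 701 lost regions, 401 had none in the full list of shAhR-1 replicate 2 or 3. None of these gained regions had a peak in pLKO replicate 2, whose full list of 19984 set the length. Their median fold was 5.74 and 5.60 in shAhR-1 replicates 2 and 3, and 5.05 and 4.87 in the 602 and 431 regions with a peak in pLKO replicates 1 and 3. At the lost regions the median fold was 3.87 and 3.75 in the 208 and 164 regions with a shAhR-1 peak, against 7.29, 4.35 and 7.04 in the pLKO libraries.

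Each library was then left out in turn, the regions were chosen from the other 5, and the library left out was asked for a peak. In shAhR-1 replicates 1, 2 and 3, gained regions had a peak more often (17.7%, 60.8% and 60.2%) than lost regions did (4.28%, 46.0% and 49.5%). In pLKO replicates 1, 2 and 3, gained regions had a peak less often (12.9%, 45.2% and 18.1%) than lost regions did (71.7%, 52.9% and 72.8%). All 6 libraries thus went with their own group in these values. The margins were widest in pLKO replicates 1 and 3, which resemble each other most with a Jaccard index of 0.695. The smallest margin was in pLKO replicate 2. At 9204 peaks its median width of 643 bp lay near the 677 and 654 bp of shAhR-1 replicates 2 and 3. The part of peak width and strength in these shares was not tested. Regions chosen without shAhR-1 replicate 1 were looked up in its 9204 peaks, so its shares lie low for both classes, and it also had a peak at 52.7% of the regions that the other 5 shared.

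**Figure D2:**
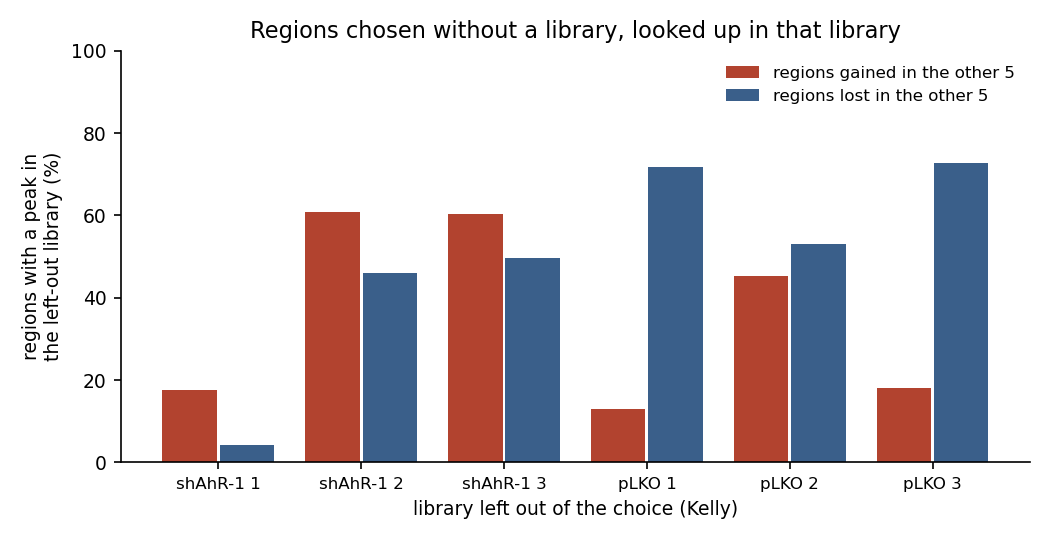
Share of regions (%) with a peak in the library left out, for regions gained (red) and lost (blue) in the other 5 Kelly libraries; each pair of bars is 1 library, the 3 of shAhR-1 first. Gained exceeds lost in each shAhR-1 library (17.7% against 4.28% in replicate 1) and lost exceeds gained in each pLKO library (52.9% against 45.2% in replicate 2).

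The gained region that stood out in both choices lies on chromosome 7 at 85139661 to 85140466 (hg19). Its peak had folds of 8.41, 14.7 and 10.8 in shAhR-1 replicates 1, 2 and 3, with 16, 49 and 40 overlapping reads at the summit. It ranked 1012, 673 and 1894 in those lists. In pLKO it was called in replicate 1 alone, with a fold of 5.21, 15 reads and rank 24812. The Kelly groups did not overlap in fold, a separation that the way of choosing regions favored. In BE2C the same region had folds of 9.21, 7.93 and 7.44 with shAhR-1, against 3.19, 4.41 and 5.43 with pLKO, again without overlap. With the second hairpin its folds were 9.16 to 9.76 in Kelly and 7.69 to 10.1 in BE2C. The shAhR-2 lists were the longest, at 60457 to 65740 peaks in Kelly and 75798 to 81637 in BE2C. Within the 9204 strongest peaks, the region was in 2 of 3 Kelly shAhR-2 lists and in 0 of 3 BE2C ones. Within 19984 peaks it was in all 3 of each. At the regions named below, shAhR-2 peaks come from the full lists unless a length is given.

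A region on chromosome 3 at 85224971 to 85225778 (hg19) was called with folds of 4.997, 10.4 and 10.2 in shAhR-1 replicates 1, 2 and 3 and in no pLKO list of Kelly. In BE2C it had folds of 10.7, 8.11 and 7.47 with shAhR-1, against 3.98, 3.21 and 5.95 with pLKO. BE2C libraries with shAhR-2 had folds of 8.79 to 11.3, but the Kelly lists with shAhR-2 had no peak there. Merged over all 6 libraries it starts at 85224855, and it is the 1 region of the 9 gained without any pLKO peak in Kelly that was also gained in BE2C, at 25660 peaks per list.

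Several of those 9 regions were open in BE2C whichever vector the cells carried. The region on chromosome 1 at 197407128 to 197407821 had folds of 7.84, 9.64 and 7.62 in Kelly shAhR-1 and no peak in Kelly pLKO. In BE2C it had folds of 10.8, 9.84 and 8.56 with shAhR-1, against 11.9, 13.4 and 9.80 with pLKO. The region on chromosome 1 at 194766018 to 194766823 had folds of 6.85, 8.37 and 8.19 in Kelly shAhR-1 and none in Kelly pLKO. Its BE2C folds were 10.7, 9.31 and 8.57 with shAhR-1 and 8.37, 11.3 and 10.5 with pLKO. At both sites the folds of the BE2C groups overlapped.

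The region that came first by the naming rule with all 6 libraries lies on chromosome 1 at 172346823 to 172347884. Its folds were 9.16, 10.3 and 9.57 in shAhR-1 replicates 1, 2 and 3, against 6.48, 3.82 and 6.90 in pLKO. Every pLKO list held the peak, at ranks 17587, 18327 and 17021, while the shAhR-1 ranks were 666, 1609 and 1617. In BE2C the region was within the 9204 strongest peaks of all 3 shAhR-1 lists and of none of the 3 pLKO lists. The gained region on chromosome 4 at 63780199 to 63781031 shows the opposite kind of call. Its folds were 8.12, 10.3 and 10.6 with shAhR-1, against 9.66, 5.62 and 9.92 with pLKO, so the groups overlapped and the call rested on list ranks. Of the 10 gained regions named with all 6 libraries, 6 had a peak in all 3 full pLKO lists.

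Without replicate 1, a very sharp and narrow peak on chromosome 6 at 133593961 to 133594138, 178 bp wide, came first. Its folds were 25.8 and 25.8 in shAhR-1 replicates 2 and 3, with 70 and 81 reads at the summit, and none of the other 16 libraries had a peak there. The next, 185 bp wide on chromosome 12 at 38543792 to 38543976, had folds of 14.98 and 18.7 in those replicates and no peak in the other 4 Kelly libraries of the comparison. It was also called in 1 library each of BE2C shAhR-1, BE2C pLKO and both shAhR-2 groups. Wider regions followed. On chromosome 3 at 168006769 to 168007767 the folds were 6.07, 9.54 and 10.3 in shAhR-1 replicates 1, 2 and 3, against 5.44 in pLKO replicate 1 and 4.39 in pLKO replicate 3. On chromosome 4 at 137198908 to 137199509 they were 3.68, 9.11 and 8.998 with shAhR-1, and no pLKO list of Kelly had a peak.

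A region lost in both choices and in both lines lies on chromosome 3 at 43218181 to 43218660. In shAhR-1 it was called in replicate 3 alone, with a fold of 3.83 and 11 reads at the summit, against folds of 12.2, 8.99 and 10.8 in pLKO replicates 1, 2 and 3. In BE2C no shAhR-1 list had a peak there, against folds of 7.17, 6.41 and 7.35 in the pLKO lists. With shAhR-2, only 1 of 3 Kelly libraries had a peak, at a fold of 3.58. All 3 BE2C lists with shAhR-2 had one, at 4.79 to 7.92.

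The other 3 regions lost in both choices were weaker. On chromosome 1 at 160332010 to 160333100 the folds were 3.51 and 3.41 in shAhR-1 replicates 2 and 3, against 6.69, 4.82 and 7.99 in pLKO. In BE2C this region had no peak in any shAhR-1 list, and folds of 5.85, 4.51 and 4.50 with pLKO. The regions on chromosome 3 at 187916563 to 187917236 and on chromosome 7 at 44315580 to 44316361 had no peak in any shAhR-1 list of Kelly. Their folds in the pLKO replicates were 7.29, 5.02 and 7.41 for the site on chromosome 3 and 8.94, 4.89 and 7.95 for the site on chromosome 7. They were the only 2 of the 270 lost regions without a peak in any full shAhR-1 list. With shAhR-2 in Kelly, the site on chromosome 7 had folds of 8.72, 6.66 and 8.68, which overlap those with pLKO. The site on chromosome 3 was called in shAhR-2 replicates 1 and 3, at 4.37 and 4.48. In BE2C it had no peak with shAhR-1 or pLKO. The site on chromosome 7 was called there in shAhR-1 replicate 1 (4.92) and pLKO replicate 3 (5.12).

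By the naming rule, the region lost with all 6 libraries that had the highest lowest fold lies on chromosome 3 at 56590762 to 56591800. Its folds were 7.41 and 5.85 in shAhR-1 replicates 2 and 3, against 11.5, 10.1 and 12.2 in pLKO. On the X chromosome at 10711788 to 10712597 the fold was 5.98 in shAhR-1 replicate 2, the only shAhR-1 library with a peak, against 12.4, 9.94 and 12.9 in pLKO. The summit held 13 reads in that shAhR-1 library and 79, 37 and 60 in the pLKO libraries. On chromosome 12 at 12965886 to 12966558 the folds were 6.68 and 6.56 in shAhR-1 replicates 2 and 3, against 12.5, 9.08 and 13.7 in pLKO, yet this region was within the 9204 strongest peaks of all 3 Kelly shAhR-2 lists (folds 11.2 to 14.0). At each of these 3 regions the folds of the groups did not overlap, and that separation was part of how they were chosen.

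**Figure D3:**
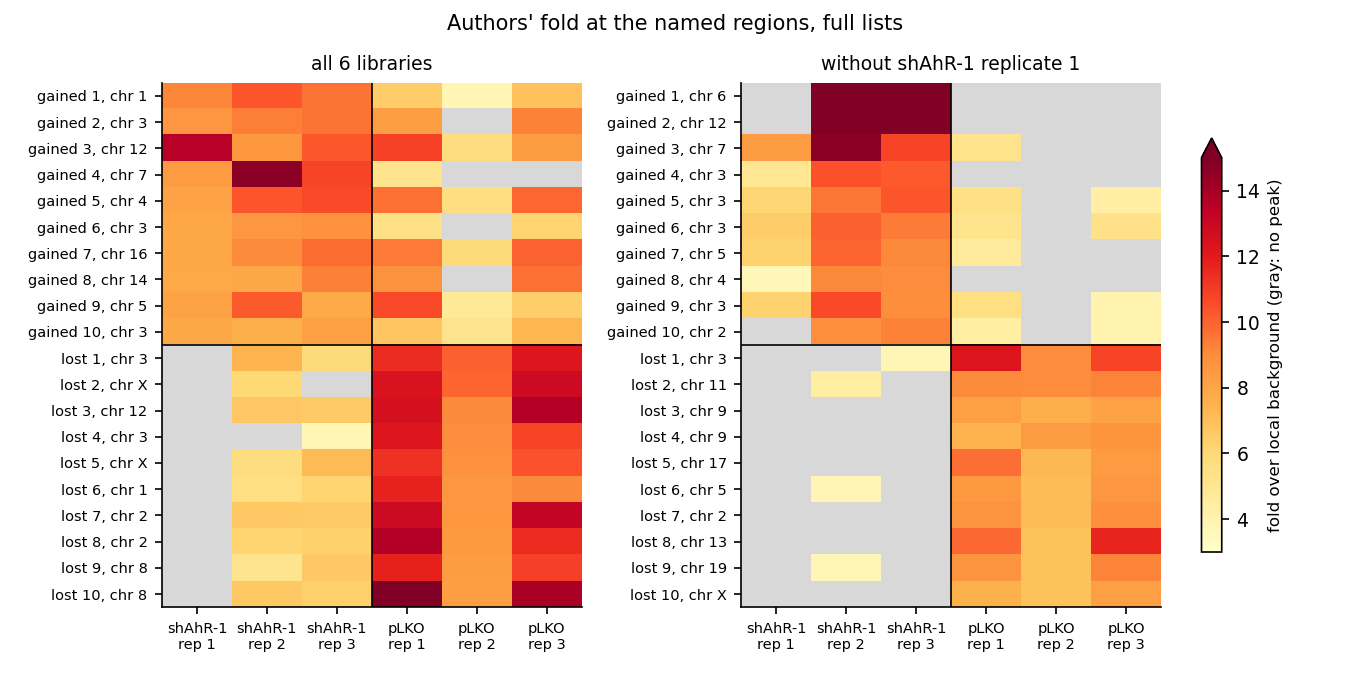
Authors' fold over local background (color, with gray for no peak) at the 10 gained and 10 lost regions named with all 6 libraries (left) and without shAhR-1 replicate 1 (right), 1 row per region and 1 column per Kelly library, shAhR-1 left of pLKO. Most gained regions named with all 6 libraries keep a called peak in pLKO (6 of 10 in all 3 full lists), while lost regions named without replicate 1 are mostly gray in shAhR-1 (6 of 10 with no peak at all).

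BE2C gave libraries that the choice of regions did not use. At 25660 peaks per BE2C list, regions gained in all 6 Kelly libraries had a peak in 82.4%, 81.5% and 80.6% of cases in the 3 BE2C shAhR-1 libraries. In the 3 BE2C pLKO libraries the shares were 72.1%, 72.5% and 74.3%. The groups did not overlap and differed by 8.56 percentage points (exact p = 0.1, the smallest possible, adjusted p = 0.3). Regions lost in Kelly had a peak in 84.4% ± 2.89 with shAhR-1 and 87.8% ± 1.34 with pLKO (SD, n = 3 each). That difference of −3.33 points was within the spread (exact p = 0.3, adjusted p = 0.3).

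The size of the BE2C difference at gained regions depended on list length. With full BE2C lists it was 3.75 points (exact p = 0.5), and the groups overlapped, at 80.6% to 91.4% with shAhR-1 and 78.4% to 84.7% with pLKO. With peaks required to span 50% or more of a region it was 5.71 points (exact p = 0.4). At 9204 peaks the gained regions had a peak in 47.5% ± 2.22 with BE2C shAhR-1 and 27.6% ± 1.45 with BE2C pLKO (SD, n = 3 each; difference 19.8 points, exact p = 0.1). The lost regions had a peak in 38.1% ± 4.51 with BE2C shAhR-1 and 48.8% ± 0.932 with BE2C pLKO (SD, n = 3 each; difference −10.6 points, exact p = 0.1). Kelly regions present in all 6 libraries had a peak in 88.4% ± 0.676 with BE2C shAhR-1 and 89.6% ± 0.428 with BE2C pLKO (SD, n = 3 each). The difference for those was −1.18 points (exact p = 0.1), smaller than at the gained or the lost regions. Their shares were high in both BE2C groups, so they cannot serve as a baseline for the gained or lost regions, whose shares were lower.

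Leaving out Kelly shAhR-1 replicate 1 kept both directions. At the planned 25660 peaks per BE2C list, the differences were 11.85 points at gained and −9.51 points at lost regions (exact p = 0.1 each). At 19984 peaks per BE2C list, gained regions had a peak in 46.7% ± 2.63 with BE2C shAhR-1 and 33.9% ± 0.409 with BE2C pLKO (SD, n = 3 each; difference 12.8 points, exact p = 0.1). Lost regions had a peak in 36.0% ± 1.95 with BE2C shAhR-1 and 45.1% ± 1.79 with BE2C pLKO (SD, n = 3 each; difference −9.08 points, exact p = 0.1). At 25660 peaks per BE2C list, the difference among gained regions with no peak in any full Kelly pLKO list was 12.7 points, and among lost regions with no peak in either full shAhR-1 list it was −10.2 points (exact p = 0.1 each). The BE2C groups overlapped in background, at 1.64, 1.75 and 1.41 with shAhR-1, against 1.51, 1.495 and 1.86 with pLKO. They did not overlap in median fold at the regions shared by all 6 Kelly libraries. Those folds were 11.03, 7.942 and 8.191 with BE2C shAhR-1, against 11.37, 12.16 and 11.92 with BE2C pLKO. The part of this difference in the BE2C shares was not tested.

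**Figure D4:**
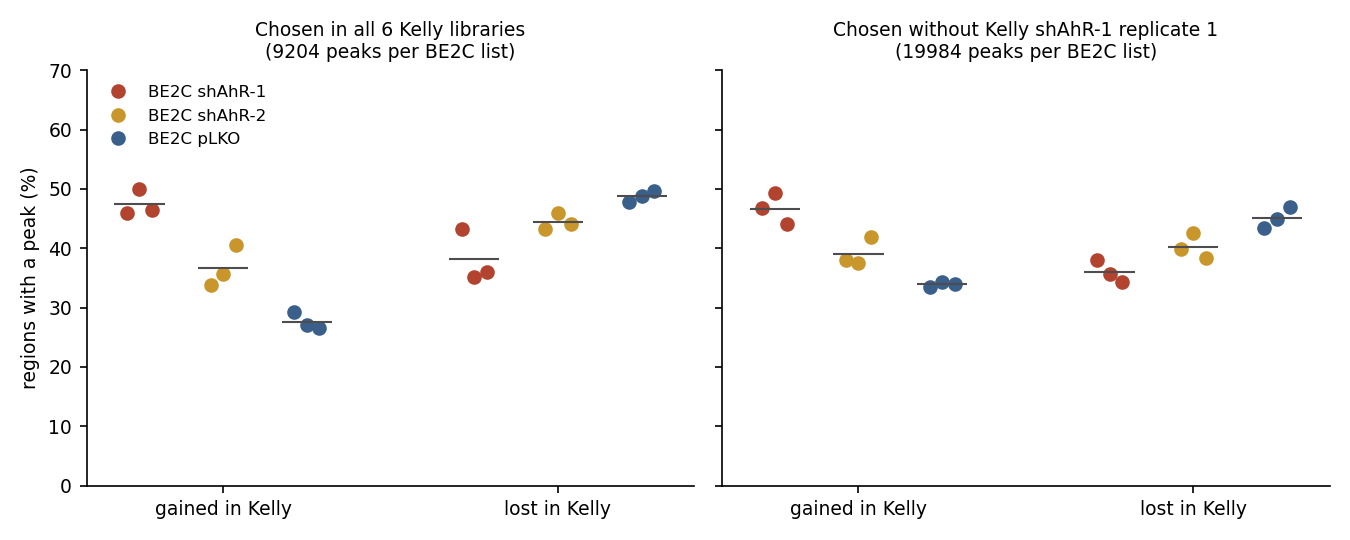
Share (%) of regions gained or lost in Kelly shAhR-1 that had a peak in each BE2C library (points; lines are means of 3), with shAhR-1 in red, shAhR-2 in gold and pLKO in blue, for regions chosen in all 6 Kelly libraries (left) and without Kelly shAhR-1 replicate 1 (right). BE2C lists were cut at 9204 peaks (left) and 19984 peaks (right), lengths that were not planned. BE2C shAhR-1 libraries lie above BE2C pLKO libraries at gained regions (47.5% against 27.6% at left) and below them at lost regions (38.1% against 48.8%).

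Few single regions were gained or lost in both lines, taking the BE2C calls at 25660 peaks per list. Of the 222 regions gained in Kelly, 8 (3.604%) were gained in BE2C and 1 was lost there, where over all 15400 regions 90 (0.584%) were gained in BE2C. Of the 270 lost in Kelly, 3 (1.11%) were lost in BE2C and 0 were gained, where over all regions 47 (0.305%) were lost in BE2C. Without Kelly shAhR-1 replicate 1, 55 of the 1120 gained regions (4.91%) were gained in BE2C and 3 were lost, beside 231 gained of all 29868 regions (0.773%). Of the 701 lost regions, 12 (1.71%) were lost in BE2C and 1 was gained, beside 253 lost of all regions (0.847%). Most regions called in Kelly were thus not called in BE2C.

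The 8 regions gained in both lines lie on chromosomes 3, 6, 7, 9, 13 and 15. Besides the sites on chromosomes 3 and 7 described above, that on chromosome 6 at 145924386 to 145925001 had folds of 4.997, 9.30 and 8.22 with shAhR-1 in Kelly, against 4.69 in pLKO replicate 1 and no peak in pLKO replicates 2 and 3. Its BE2C folds were 10.1, 6.51 and 6.95 with shAhR-1, against 4.41 and 6.59 in pLKO replicates 2 and 3. The region on chromosome 15 at 96730936 to 96731673 had folds of 6.46, 9.48 and 8.25 in Kelly shAhR-1, against 7.15, 5.05 and 7.31 in Kelly pLKO, which overlap. In BE2C it had folds of 9.17, 7.95 and 5.92 with shAhR-1 and no peak in any pLKO list. The third region lost in both lines, on chromosome 1 at 48269714 to 48270261, had folds of 6.42 and 5.29 in Kelly shAhR-1 replicates 2 and 3, against 10.5, 6.19 and 11.7 in Kelly pLKO.

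The number of changed regions per 100 regions varied between chromosomes. With all 6 libraries, gained regions made up 2.88 per 100 regions of chromosome 13, 2.84 on chromosome 3, 2.49 on chromosome 6 and 2.30 on chromosome 4. Chromosome 18 had 0 gained regions of 162 and 4.32 lost per 100. Its order turned without replicate 1 of shAhR-1, at 3.46 gained and 1.73 lost per 100. Gained regions made up 0.347 per 100 on chromosome 22 (1 of 288 regions), 0.411 on chromosome 16, 0.445 on X and 0.452 on 11. Lost regions made up 3.12, 3.09, 2.00 and 2.56 per 100 on these. Without replicate 1 of shAhR-1, gained regions made up 8.02 per 100 on chromosome 13, 5.93 on chromosome 4 and 5.09 on chromosome 3, against 0.612 on chromosome 19, 1.26 on chromosome 16 and 1.46 on chromosome 22. Chromosome 6 had few lost regions in both choices (0.592 and 1.24 per 100).

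The share of each library's peaks on a chromosome does not depend on calls of regions. With all 6 libraries at 9204 peaks, 8 of 23 chromosomes (34.8%) had shares that did not overlap between groups. The shares on chromosomes 4, 6 and 8 lay higher with shAhR-1, and those on chromosomes 11, 14, 16, 20 and 22 lay lower. Chromosome 4 held 6.03% ± 0.123 of peaks with shAhR-1 and 5.36% ± 0.268 with pLKO, and chromosome 20 held 1.71% ± 0.049 with shAhR-1 and 2.04% ± 0.104 with pLKO (SD, n = 3 each). Each had an exact p = 0.1, and the p adjusted over 23 chromosomes was 0.287. Without replicate 1 at 19984 peaks, 12 of 23 chromosomes (52.2%) did not overlap. Chromosomes 4, 6, 8, 10 and 13 were then higher with shAhR-1, and 9, 11, 16, 17, 19, 20 and 22 were lower (exact p = 0.2 each, the smallest that 2 against 3 allow). In BE2C, at 25660 peaks per list, shares did not overlap on 3 of 23 chromosomes. Chromosome 21 was higher with BE2C shAhR-1, and chromosomes 3 and 11 were lower. Of these, only chromosome 11 was also free of overlap in Kelly, where it was lower with shAhR-1 in both choices. These counts of chromosomes come from unlike list lengths or numbers of libraries, so they cannot be compared directly. Depth, peak width and list length also differed between the Kelly groups, and their part in these shares was not tested.

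**Figure D5:**
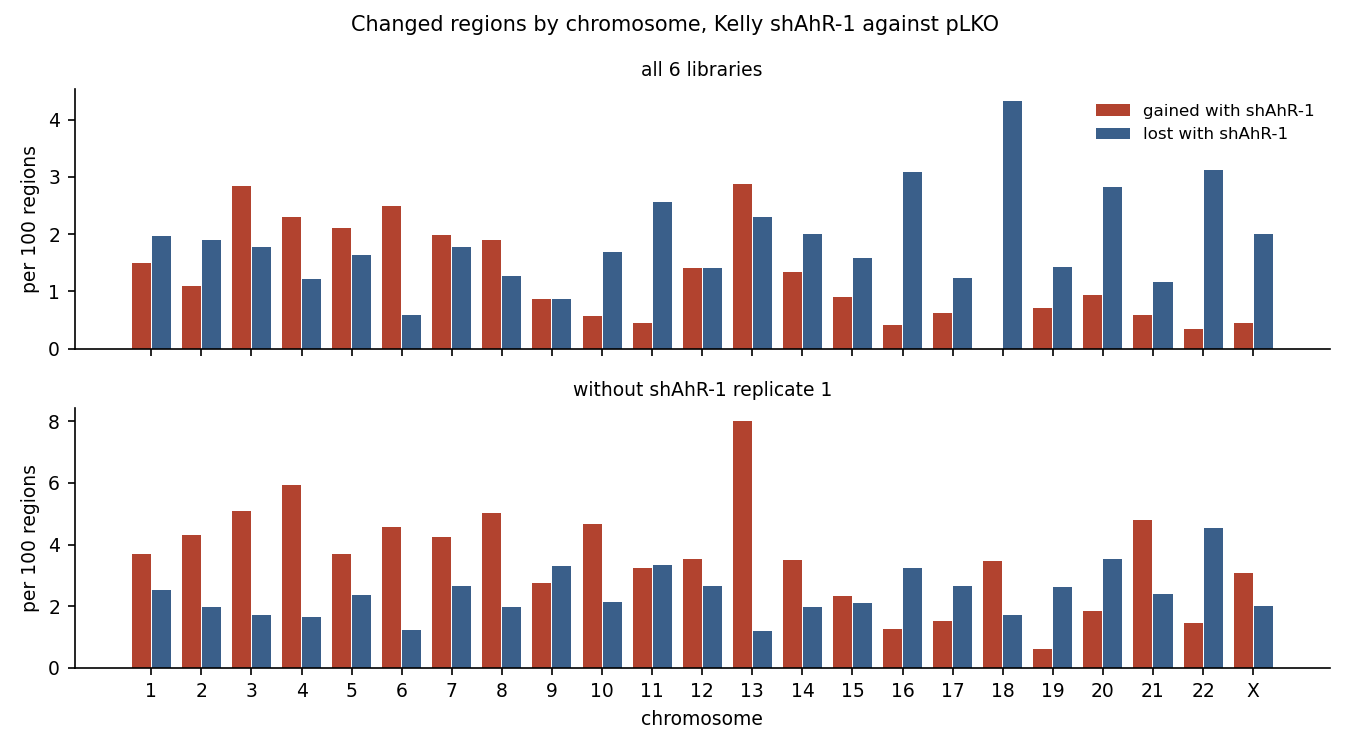
Gained (red) and lost (blue) regions per 100 regions of each chromosome, with all 6 Kelly libraries (top) and without shAhR-1 replicate 1 (bottom). Gained regions exceed lost regions on chromosomes 3, 4, 5, 6, 7, 8 and 13 in both panels. Lost regions exceed gained regions on chromosomes 11, 16, 17, 19, 20 and 22 in both.

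Gained regions lay farther from the regions open in every library than lost regions did. With all 6 libraries the median distance to the nearest shared region was 264 kb for gained and 152 kb for lost regions, with 189 kb for those present in a mixture of libraries. Without replicate 1 it was 116 kb for gained and 38.4 kb for lost regions, with 60.1 kb for mixed ones. Within 100 kb of a shared region lay 25.2% of gained and 38.9% of lost regions with all 6 libraries, and 45.5% and 75.8% without replicate 1. Gained regions were also narrower, with a median of 731 bp against 832 bp for lost and 1060 bp for shared regions. Without replicate 1 the medians were 484 bp for gained, 645 bp for lost and 950 bp for shared regions. A gained region joins shAhR-1 peaks alone, a lost one pLKO peaks alone and a shared one peaks of both groups. The peak widths of the lists therefore enter these medians, and their part was not tested.

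Windows of 1 Mb show how changed regions were grouped. With all 6 libraries, 181 of the 199 windows of 1 Mb that held a gained region held just 1, and 212 of the 240 windows with a lost region held 1. Only 5 windows held 3 gained regions and 2 held 3 lost regions. Among the windows with 3 gained regions was chromosome 7 from 85000001 to 86000000, where 3 of its 4 regions were gained and the other was lost. Without replicate 1, 587 of the 819 windows with a gained region and 398 of the 529 windows with a lost region held 1. The densest gained window there was chromosome 1 from 221000001 to 222000000, with 7 gained and 0 lost of 15 regions. The densest lost windows were chromosome 11 from 46000001 to 47000000, with 5 lost of 25 regions, and chromosome 9 from 139000001 to 140000000, with 5 lost of 37.

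The second hairpin gives a side-by-side reading in Kelly, though its comparison would use the same pLKO libraries. At 9204 peaks, regions gained with shAhR-1 in all 6 libraries had a peak in 22.1%, 27.0% and 22.5% of cases in the Kelly shAhR-2 replicates 1, 2 and 3. Regions lost with shAhR-1 had a peak in 57.0%, 46.7% and 54.8%. In all 3 shAhR-2 libraries the shares were thus higher at the lost regions than at the gained ones. The rule fixes these shares in the Kelly shAhR-1 and pLKO libraries, so Kelly gives no neutral level to set them against. Without shAhR-1 replicate 1, at 19984 peaks, gained regions had a peak in 26.5%, 30.8% and 27.4% and lost regions in 52.6%, 44.2% and 51.8%. In BE2C at 9204 peaks, shAhR-2 libraries lay between the other groups, with 36.6% ± 3.50 at the gained and 44.4% ± 1.34 at the lost regions (SD, n = 3).

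The full lists, without any shortening, gave 46664 regions, of which 75 (0.161%) were gained and 918 were lost. Peaks for the gained regions had to pass the caller in the short list of replicate 1 as well. Lost regions needed absence from the shAhR-1 lists, which held 9204, 24424 and 23806 peaks, against 34848, 19984 and 30053 with pLKO. The gained and lost counts from full lists therefore cannot be compared directly. At 25660 peaks per BE2C list, these 75 regions had a peak in 60.9% ± 0.770 with shAhR-1 and 45.8% ± 3.36 with pLKO, and the 918 lost ones in 34.2% ± 4.08 with shAhR-1 and 43.5% ± 1.64 with pLKO (SD, n = 3 each; differences of 15.1 and −9.33 points, exact p = 0.1 each).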

How the data were processed

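Accessibility was measured by ATAC-seq in 6 libraries, with 12 others of the series consulted. The submitters' processing notes name the build hg19, MACS2 2.1.0, BWA 0.7.17, deepTools 3.1.3, CASAVA 1.8.2 and Trimmomatic 0.33. Their settings, duplicate removal and any shift of read ends, which could move summits or decide which peaks were called, were not given in the sources used here. The authors deposited 1 peak list per library, each peak with an integer score, a fold ratio over local background at the summit, and a −log10 p-value and −log10 q-value from the caller. These are the authors' values. They were used to rank and filter peaks within a list, to order the named regions and to solve for read numbers, and folds of different libraries are set side by side as a description, since they are not normalized to each other.

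Only peaks on chromosomes 1 to 22 or X entered, and lists were shortened to their strongest peaks by −log10 p to a common length. Peaks of the shortened lists were merged into regions wherever they overlapped by at least 1 bp. A library had a region if one of its peaks overlapped it. Fold and −log10 p together gave the number of reads at a summit and the local background, assuming a pseudocount of 1 and a Poisson tail, for 98.4% to 99.6% of peaks in the 6 lists. The lowest local background of a list served as its measure of depth, since read totals were not used here. Groups came from the genotype and cell line labels. Exact permutation tests over libraries were two-sided, except that similarity was compared over the 10 divisions into trios, and p-values were adjusted by Benjamini-Hochberg over 6 tests (Python 3.11.15, numpy 2.4.6, scipy 1.17.1). The functions were tested on simulated data.

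Up to 10 gained and 10 lost regions per choice of libraries were named, in order of the lowest fold among the libraries of the group with the peak. Regions found in both choices, in both lines, or with no peak at all in the other group were also named after their values were seen. The comparison, the lists and the tests were chosen with earlier results of these data known. Genes near regions, the share of peaks at promoters, motifs, marker genes and sequences were not analysed here, because the annotation used is on another build than the peaks.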

Additional observations from a re-analysis of the deposited data

How the results depend on the processing

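Region counts depended on the processing, and the cause was not tested. For the 222 gained and 270 lost regions, the counts were 75 and 918 with full lists, 116 and 142 at 5000 peaks, 94 and 429 where peaks had to span 50% or more of a region, and 20 and 833 at a −log10 q of at least 5. They were 793 and 719 when 2 libraries of a group sufficed, and 9 and 2 when the full lists of the other group had to lack the peak. Full lists and lists cut by −log10 q have unlike lengths, so their gained and lost counts cannot be compared directly. Leaving out a library gave 255 to 1120 gained and 371 to 701 lost regions, with the highest of both without shAhR-1 replicate 1, where the lists also lengthened to 19984 peaks. At 9204 peaks without that replicate, an alternative added after the data were seen, 504 were gained and 377 lost, and the 377 lie below the 500, 535 and 510 lost without shAhR-1 replicate 2, shAhR-1 replicate 3 or pLKO replicate 2. Every alternative that kept more gained than lost regions thus either left out that replicate or relaxed the rule to 2 libraries or asked for no peak in the other group. Without shAhR-1 replicate 1, the 1120 gained regions became 740 with full lists, 229 at 5000 peaks, 403 at the stricter q and 435 with no peak in the other group, and 1341 to 1550 with a further library left out. The 701 lost regions became 942 with full lists, 210 at 5000 peaks and 841 at the stricter q. They became 2117 with 2 libraries sufficing (gained regions still needed both) and 401 with no peak in the other group. With a further library left out they became 962 to 2166. The highest was without pLKO replicate 2, where the shortest remaining list held 23806 peaks instead of 19984.

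Similarity within groups over that between them ranged from −0.012 to 0.121 with a library left out. It reversed without pLKO replicate 1 (−0.012) and without pLKO replicate 3 (−0.0081). The log2 ratios ranged from −0.90 to −0.19 for peak number, −1.31 to −0.40 for covered length and −0.77 to −0.29 for median width. With a BE2C library left out, the BE2C differences ranged from 8.11 to 9.23 points for gained and from −5.00 to −2.59 for lost regions. With full BE2C lists they were 3.75 (exact p = 0.5) and −5.68 points (exact p = 0.3), and with 50% of a region covered 5.71 (exact p = 0.4) and −10.2 points (exact p = 0.3). These 5 results kept their direction under every alternative run, though not their size.

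The labels do not say what a replicate number marks. With the number as a block, the paired values were −0.66 for peak number, −0.997 for covered length and −0.58 for median width (exact sign-flip p = 0.5 each), and 8.56 (exact p = 0.25) and −3.33 points (exact p = 0.5) for gained and lost regions in BE2C. The smallest p of that test is 0.25. Promoter shares, gene lists and motifs were not run. Replicate 1 of shAhR-1 has the shortest list and the lowest background, and its part in the counts that include it was not tested beyond leaving it out.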

Other observations

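Narrow, high peaks (under 260 bp, fold above 10) occurred in all 6 libraries compared, 27, 44 and 25 in shAhR-1 replicates 1, 2 and 3, against 17, 26 and 33 in pLKO. The sharp peak on chromosome 6 at 133593961 to 133594138 is of that kind. The 1 Mb window on chromosome 2 from 16000001 to 17000000 held 105 regions with all 6 libraries, of which 3 were gained and 2 were lost. The 39 regions gained in both choices of libraries had a peak in 15, 17 and 15 cases in the BE2C shAhR-1 libraries at 9204 peaks, against 9, 9 and 6 in the BE2C pLKO libraries. In the Kelly shAhR-2 libraries at that length, 2, 4 and 3 of the 39 had a peak.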
